A study of Rattus norvegicus with 24 samples.

Results

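The mitochondrial genome of the rat carries genes for subunits of cytochrome c oxidase (COX1, COX2 and COX3), for subunits of ATP synthase (ATP8 and ATP6) and for cytochrome b (CYTB). These 6 genes were followed through 24 RNA sequencing libraries from rats given fentanyl, an opioid agonist, or saline. The libraries cover a striatal region, the nucleus accumbens (NAc), and a midbrain region, the ventral tegmental area (VTA). They were taken by position, as features of 200 nt or more on the mitochondrial chromosome with the start positions of those genes, and all 6 were found among 35 mitochondrial features and 32552 features in all. Of the 13 mitochondrial features of at least 200 nt, the remaining 7 lie where the complex I (ND) subunit genes lie. The deposited tables hold Ensembl identifiers and no symbols, so the gene names rest on position and length.

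Oxidative phosphorylation passes electrons along protein complexes of the inner mitochondrial membrane and uses the proton gradient they build to make ATP. CYTB is the only mitochondrially encoded subunit of complex III, COX1 to COX3 form the catalytic core of complex IV, where oxygen is reduced, and ATP6 and ATP8 belong to the membrane part of complex V, the ATP synthase. The heavy strand is transcribed as long precursors that are cut mostly at tRNAs, and ATP8 and ATP6 share a single mature mRNA. Levels of the mature mRNAs therefore depend on processing and stability as well as on transcription. Neurons draw heavily on this pathway, and the remaining subunits of these complexes are made from nuclear genes.

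All rats were Sprague Dawley of either sex. No genetic change is given in the labels, and neither age nor dose is given in the sources used here. The series title names opioid withdrawal and the choice of fentanyl over food, and all rats were decapitated without anesthesia in place of a final choice session. In the NAc, 4 fentanyl and 3 saline rats of each sex were measured, and in the VTA 3 fentanyl and 2 saline rats of each sex. Both regions came from the same animal in 10 rats, and 4 further rats gave the NAc only. Punches had an internal diameter of 2.16 mm in the NAc and 1.19 mm in the VTA, and bulk tissue cannot tell fewer cells of a type from less RNA per cell. Whether each punch expressed the defining markers of its region was not analysed here, because the tables pair no identifier with a symbol.

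NAc libraries held 3.46 M to 5.01 M counts and VTA libraries held 4.49 M to 6.30 M. In NAc females the fentanyl libraries had fewer nuclear counts (counts outside the mitochondrial chromosome), 2.24 M to 3.26 M, than the saline libraries, 3.30 M to 3.75 M, and these ranges did not overlap. The library of fentanyl female replicate 1 stood apart in the NAc, with 54.2 mitochondrial mRNA counts per 100 nuclear counts against 27.9 to 43.8 in the other NAc libraries. The VTA library of the same rat was also the highest of its region, at 34.8 against 20.8 to 33.6, with the fewest nuclear counts there, 3.29 M. In NAc females the fold changes that passed, the shares and the ratios are given with and without fentanyl replicate 1. Values of single libraries are listed by replicate number, which in the NAc is 1, 2, 7 and 8 for fentanyl females, 1, 2 and 4 for saline females, 1, 2, 3 and 7 for fentanyl males and 1, 3 and 4 for saline males.

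COX1 (ENSRNOG00000034234; MT 5323 to 6867, 1545 nt) and COX2 (ENSRNOG00000030371; 7006 to 7689, 684 nt) lie on the plus strand of the tables' coordinates, whose genome build is not given in the sources used here. ATP8 (ENSRNOG00000033299; 7758 to 7961, 204 nt) and ATP6 (ENSRNOG00000031979; 7919 to 8599, 681 nt) overlap by 43 nt. COX3 (ENSRNOG00000030700; 8599 to 9382, 784 nt) begins on the last base of ATP6. CYTB (ENSRNOG00000031766; 14136 to 15278, 1143 nt) is set apart from the other 5 by the ND genes. COX1 also overlaps by 3 nt a 69 nt feature on the opposite strand (ENSRNOG00000032882; 6865 to 6933). How reads in shared bases or on either strand were assigned is not stated, so counts of ATP8 and ATP6 may include each other's reads.

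These genes ranked among the most heavily counted features of the tissue. COX1 had the highest count of all features in 23 of 24 libraries and the second highest in the remaining one, with 165262 to 317408 counts. CYTB, from 106877 to 184239 counts, ranked between 2 and 4. The other members ranked between 5 and 10. Together the 6 genes took 11.5% to 19.3% of all counts in a library and 56.4% to 66.8% of the counts of mitochondrial mRNA features.

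Per unit of length, ATP8 stood first in both regions. In the NAc its mean level was 110.1 ± 29.3 counts per kilobase per 1000 nuclear counts (SD, n = 14), above COX2 in all 14 libraries. COX2 at 47.1 ± 12.7 and COX1 at 46.1 ± 4.68 followed on this scale, and COX2 was above COX1 in only 5 of 14 libraries, so their order did not exceed their spread. CYTB at 44.0 ± 8.89 was above ATP6 at 38.0 ± 2.79 in 11 of 14 libraries, and COX3 was last at 31.1 ± 2.09, below ATP6 in all 14. In the VTA the order of mean levels per length was ATP8 (65.5 ± 14.4, n = 10), COX1 (41.4 ± 7.11), COX2 (35.1 ± 6.78), COX3 (30.8 ± 4.24), ATP6 (29.3 ± 4.33) and CYTB (27.1 ± 4.67). CYTB was thus the fourth of the 6 in the NAc and the last in the VTA, where it was below ATP6 in 9 of 10 libraries. ATP8 is by far the shortest of the features, and a read of 150 nt that overlaps it only in part may count in full.

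The first comparison asked how fentanyl and saline rats differed in the NAc of females, and 3 of the 6 genes were higher after fentanyl. Counts of ATP8 were 2.01-fold higher, of COX2 1.71-fold and of CYTB 1.56-fold, whereas COX1, ATP6 and COX3 did not pass the test. ATP6, which shares a mature mRNA with ATP8, had a fold change of 1.1 (edgeR adjusted p = 0.486). The ATP8 value is therefore that of the feature's counts and not of the whole shared mRNA. Over all features tested in this comparison, 13.5% passed in either direction and 8.05% passed as higher (edgeR quasi-likelihood test, Benjamini-Hochberg adjusted p under 0.05, 13248 features). The median log2 fold change was 0.49 over the 6 genes and -0.00012 over all features tested, which the scaling between libraries (TMM) keeps near 0. Of the other 7 mitochondrial mRNA features, 4 were called higher and 3 did not pass.

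ATP8, a small membrane subunit of ATP synthase, stood at 3.62, 2.92, 2.55 and 2.32 counts per 100 nuclear counts in the 4 females given fentanyl and at 1.31, 1.65 and 1.52 in the 3 given saline. Every fentanyl library lay above every saline library, as it did for 10% of all features on this scale. The log2 fold change of ATP8 was 1.01 ± 0.16 (SE) with an adjusted p of 0.000574 (edgeR), and 0.84 with an adjusted p of 0.00141 without fentanyl replicate 1.

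COX2, which carries the copper site that takes electrons from cytochrome c, was measured at 5.72, 3.89, 3.24 and 3.15 counts per 100 nuclear counts after fentanyl and at 2.17, 2.69 and 2.53 after saline. The groups did not overlap, and replicate 1 was the highest by a wide margin. The log2 fold change of COX2 was 0.77 ± 0.19 with an adjusted p of 0.0121 (edgeR). Without fentanyl replicate 1 it was 0.51 with an adjusted p of 0.0228, and the call was lost without saline replicate 1, with an adjusted p of 0.0743 (edgeR). The call was also lost with no low-count filter (edgeR adjusted p = 0.0784).

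CYTB, the haem-bearing core of complex III, stood at 7.67, 5.65, 5.13 and 5.18 counts per 100 nuclear counts after fentanyl and 3.52, 4.32 and 4.15 after saline. Again no library of a group reached into the other, and replicate 1 was the highest. The log2 fold change of CYTB was 0.64 ± 0.16 with an adjusted p of 0.0123 (edgeR), and 0.45 with an adjusted p of 0.0351 without fentanyl replicate 1. Without saline replicate 1 the adjusted p of CYTB was 0.0796, and in a fit of females only it was 0.0582 (edgeR), so the call was lost in both cases.

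COX1, the catalytic subunit of complex IV, had 8.67, 7.56, 7.23 and 7.43 counts per 100 nuclear counts after fentanyl and 5.57, 7.02 and 6.71 after saline. The groups were separate by a narrow gap. Its log2 fold change of 0.33 ± 0.14 did not pass (edgeR adjusted p = 0.108), though it did by DESeq2 (adjusted p = 0.0307) and with no low-count filter (edgeR adjusted p = 0.0130).

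The members encoded next to each other at the end of this stretch of the genome gave other values. ATP6, the subunit that forms the proton path, had 2.61, 2.49, 2.57 and 2.86 counts per 100 nuclear counts after fentanyl and 2.21, 2.66 and 2.64 after saline, with groups that overlapped and a log2 fold change of 0.14 ± 0.12 (edgeR adjusted p = 0.486). COX3, a further core subunit of complex IV, had 2.30, 2.36, 2.33 and 2.42 after fentanyl and 2.44, 2.74 and 2.68 after saline. COX3 was thus the only member with all fentanyl libraries below all saline libraries on this scale, as were 15.6% of all features. Its log2 fold change was -0.09 ± 0.11 (edgeR adjusted p = 0.648).

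**Figure D1:**
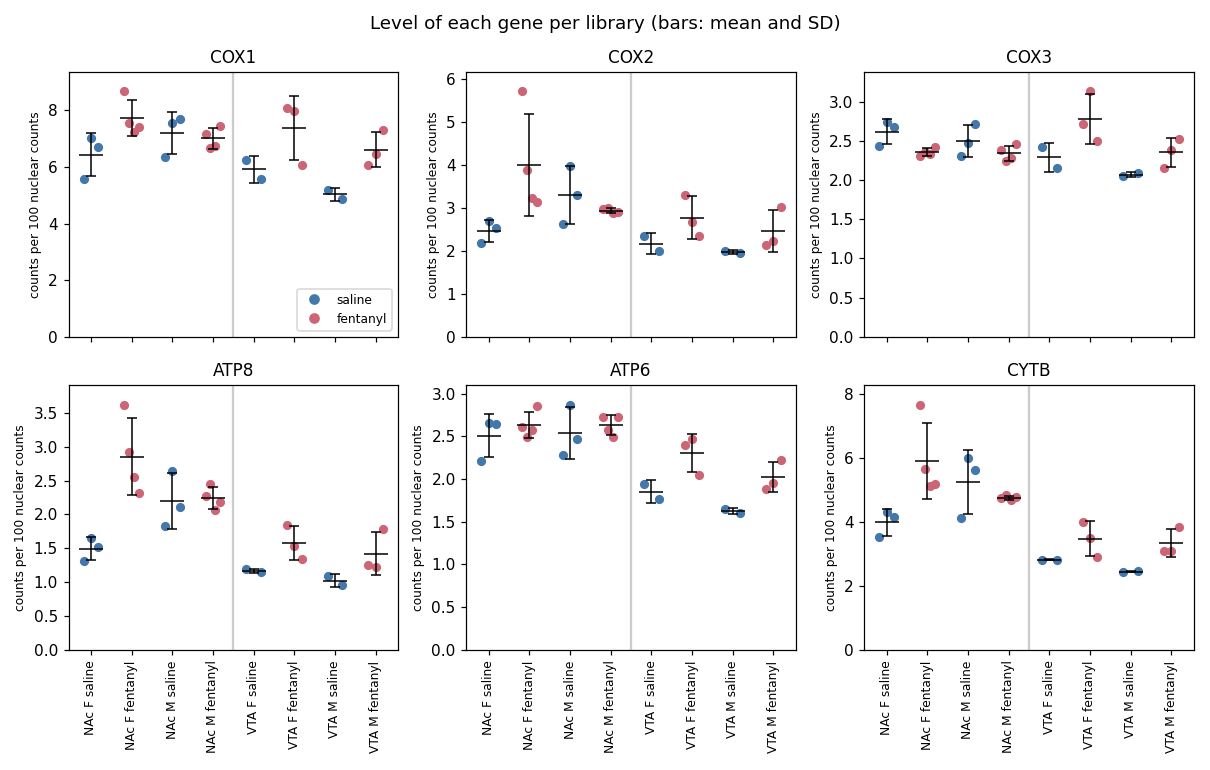
Counts of each gene per 100 nuclear counts in every library (points), by region, sex and treatment, with group means and SD (bars); F is female and M is male. ATP8 in NAc females ran from 2.32 to 3.62 after fentanyl and from 1.31 to 1.65 after saline, while ATP6 overlapped between the 2 groups.

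By exact two-sided permutation of the level per nuclear count in NAc females, COX1, ATP8, COX3 and CYTB each reached p = 0.0286, the smallest that 35 regroupings can give. The Benjamini-Hochberg adjusted p over 130 such tests was 0.0929 for each, and no member passed by this test.

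The differences were uneven within the mitochondrial mRNA, which shows in each gene's share of it. In NAc females after fentanyl COX1 took 16.0%, 17.8%, 18.2% and 18.6% of mitochondrial mRNA counts against 19.9%, 20.2% and 20.3% after saline, a difference of -2.51 percentage points. COX3 took 4.25%, 5.55%, 5.84% and 6.08% after fentanyl against 8.72%, 7.88% and 8.11% after saline, a difference of -2.81 points. Both genes had every fentanyl library below every saline library. ATP6 did so too, with a difference of -1.78 points between means of 6.07% and 7.85%.

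ATP8, COX2 and CYTB lay on the other side. ATP8 took 6.68%, 6.86%, 6.41% and 5.81% of mitochondrial mRNA counts after fentanyl and 4.70%, 4.75% and 4.59% after saline, a difference of 1.76 points. COX2 differed by 1.20 points and CYTB by 0.81 points, each with all fentanyl libraries above all saline libraries. Without fentanyl replicate 1 the differences were 0.66 points for COX2, 0.53 for CYTB and 1.68 for ATP8, and -1.96 for COX1, -2.41 for COX3 and -1.36 for ATP6, and each gene stayed separate in its direction. Of the 13 mitochondrial mRNA features, 53.8% were separate in this direction and 30.8% in the opposite one, and shares of a common total are bound to each other. The exact permutation p was 0.0286 for COX1, ATP8 and COX3, the smallest possible, with an adjusted p of 0.124.

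**Figure D2:**
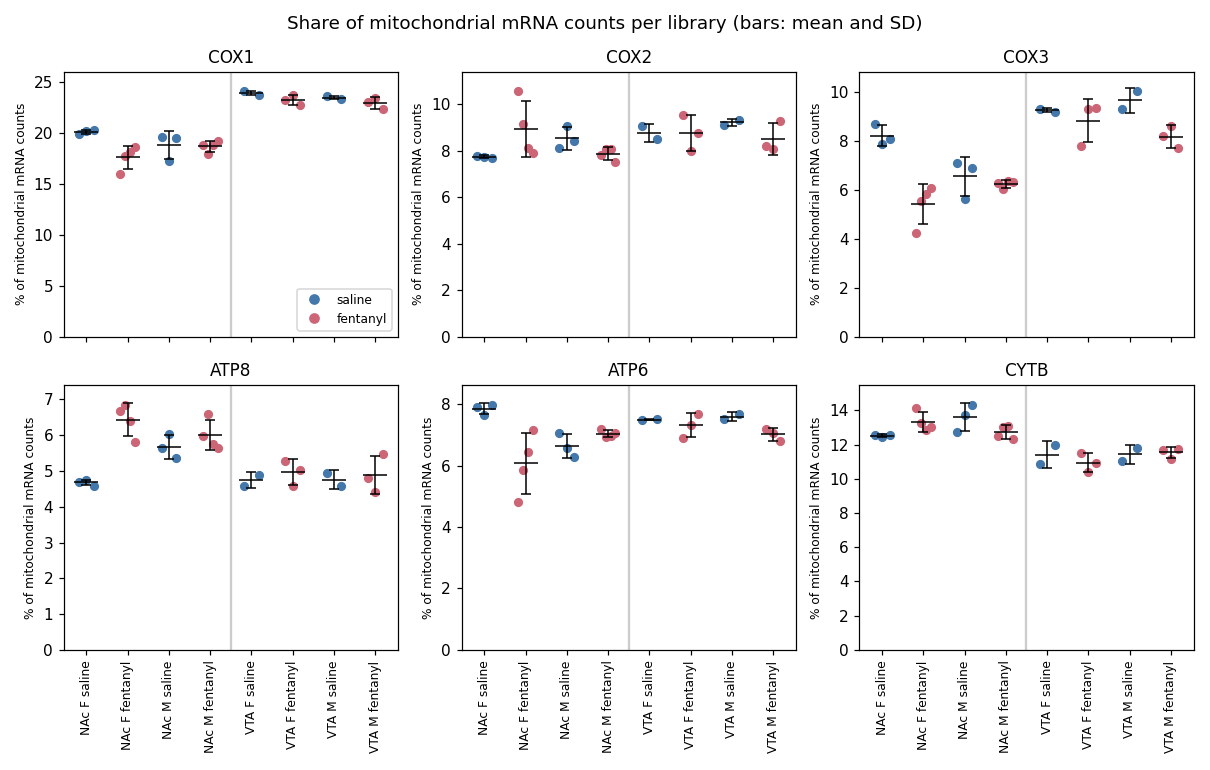
Percent of mitochondrial mRNA counts taken by each gene in every library (points), by region, sex and treatment, with group means and SD (bars); F is female and M is male. In NAc females COX3 ran from 4.25% to 6.08% after fentanyl and from 7.88% to 8.72% after saline, and COX1 was at 22.4% or more in every VTA library.

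Ratios between members need no common denominator. There were 1.09 ± 0.247 ATP8 counts per ATP6 count in fentanyl females (0.810 to 1.39, n = 4) and 0.596 ± 0.0228 in saline females (n = 3). ATP8 and ATP6 are parts of the same mature mRNA, and the part of read assignment in their shared 43 nt was not tested. COX2 counts per COX3 count were 1.71 ± 0.539 after fentanyl and 0.940 ± 0.0454 after saline. In both ratios fentanyl replicate 1 was the highest library, and without it the means were 0.991 ± 0.180 and 1.45 ± 0.180 (n = 3), still above all saline females.

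**Figure D3:**
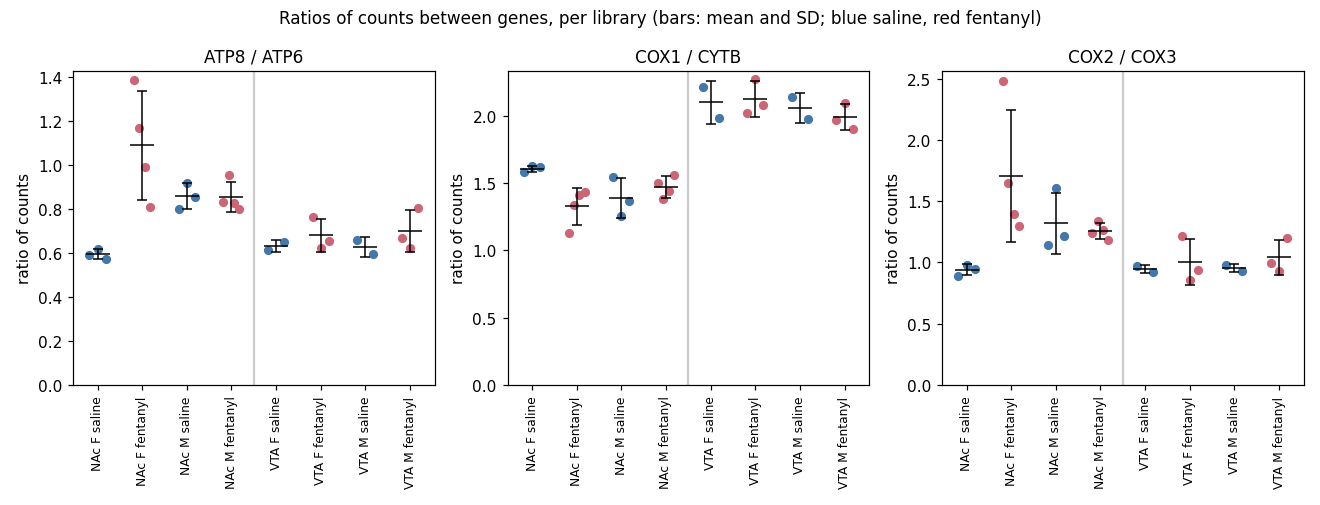
Ratios of raw counts between gene pairs in every library (points), with group means and SD (bars). ATP8 per ATP6 ran from 0.810 to 1.39 in fentanyl NAc females, above the saline NAc females, and COX1 per CYTB separated all VTA libraries (1.90 to 2.28) from all NAc libraries (1.13 to 1.62).

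Other quantities moved with these levels in NAc females. The 69 nt feature opposite the end of COX1 stood at 2.18 ± 1.03 counts per 100 nuclear counts after fentanyl (1.71 ± 0.486 without replicate 1) and 0.451 ± 0.107 after saline. Mitochondrial mRNA features made up 95.2 ± 1.44% of all mitochondrial counts after fentanyl (95.8 ± 0.946% without replicate 1) and 98.4 ± 0.207% after saline. These quantities are not separate, because the 69 nt feature held most counts of the mitochondrial features under 200 nt. Together those features stood at 2.32 ± 1.10 counts per 100 nuclear counts after fentanyl (1.81 ± 0.487 without replicate 1) and 0.517 ± 0.121 after saline. The part of these shifts, and of the lower nuclear counts, in the differences of the 6 genes was not tested. RNA integrity numbers were 8.0 to 9.2 over the series and are not given per library.

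In NAc males none of the 6 genes passed, and neither did any other feature (0% called, edgeR). The log2 fold changes lay between -0.18 ± 0.19 for COX2 and 0.05 ± 0.12 for ATP6, with adjusted p from 0.918 to 0.990 (edgeR). Over all features 850 had an unadjusted p under 0.05, with none of the 6 genes among them, and DESeq2 also called none of the 6.

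The individual values overlapped for all 6 genes, where 4.45% of all features had every fentanyl library above every saline library and 3.74% had every one below. ATP8 had 2.28, 2.46, 2.06 and 2.19 counts per 100 nuclear counts in fentanyl males and 1.83, 2.64 and 2.11 in saline males. CYTB had 4.76, 4.84, 4.69 and 4.77 after fentanyl and 4.11, 6.01 and 5.64 after saline. The saline males were the more spread group for both genes and enclosed all fentanyl males.

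COX2 likewise had 2.97, 3.0, 2.89 and 2.90 after fentanyl and 2.63, 3.97 and 3.31 after saline. As a share of mitochondrial mRNA, COX2 was the only member without overlap in NAc males, at 7.50% to 8.09% after fentanyl and 8.12% to 9.07% after saline, a narrow gap in which 7.69% of the 13 features were found.

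The difference between the sexes was tested directly. ATP8 passed, with a female effect that exceeded the male effect by 0.98 ± 0.23 on the log2 scale (adjusted p = 0.0383, edgeR). Of all features 0.77% passed, and 0.642% passed with a female effect above the male effect. The corresponding differences were 0.95 ± 0.27 for COX2 (adjusted p = 0.0970) and 0.79 ± 0.23 for CYTB (adjusted p = 0.0979, edgeR), neither of which passed. COX1 differed by 0.38 ± 0.19, ATP6 by 0.09 ± 0.17 and COX3 by 0.01 ± 0.16 (edgeR adjusted p of 0.387, 0.867 and 0.980). The other 7 mitochondrial mRNA features also had positive differences, from 0.19 to 1.07, and none passed (edgeR).

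The call for ATP8 was lost in 8 of the 14 fits that left out a library, with adjusted p up to 0.194 (edgeR). These were the fits without fentanyl male replicate 1, 3 or 7, without saline male replicate 3 or 4 and without saline female replicate 1, 2 or 4. COX2 passed as well without fentanyl female replicate 8 (edgeR adjusted p = 0.0346), and CYTB without saline male replicate 1 (edgeR adjusted p = 0.0478). Averaged over the sexes, only ATP8 of the 6 genes was called in the NAc (0.52 ± 0.11, adjusted p = 0.0105, edgeR), beside 7.51% of all features and 4.52% called higher. ATP6, on the same mature mRNA as ATP8, stood at 0.09 ± 0.09 (adjusted p = 0.557, edgeR). Of the other 7 mitochondrial mRNA features, 2 were called higher. By exact permutation of the level per nuclear count, ATP8 did not pass in this comparison (p = 0.0188, adjusted p = 0.0897). Among saline rats ATP8 stood at 1.49 ± 0.170 counts per 100 nuclear counts in females (1.31 to 1.65, n = 3) and at 2.19 ± 0.414 in males (1.83 to 2.64, n = 3), without overlap. It was the only one of the 6 genes separate in this way, as were 8.34% of all features, and this difference was not tested.

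**Figure D4:**
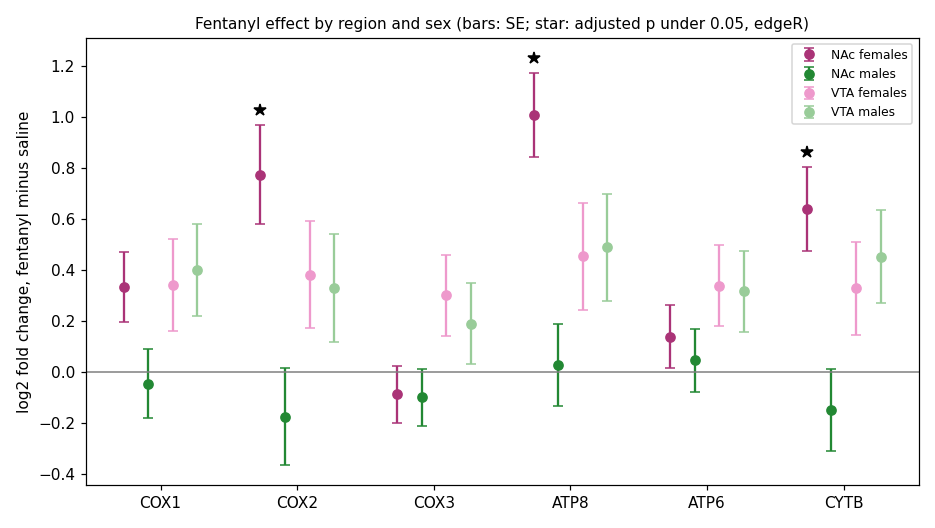
Log2 fold change of fentanyl against saline from edgeR, with its standard error (bars), for each gene in each region and sex; stars mark an adjusted p under 0.05. ATP8, COX2 and CYTB in NAc females are starred, values in NAc males lie near 0, and all VTA values are above 0 without passing.

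In the VTA all 6 genes had positive log2 fold changes in both sexes, and none passed (0% of 14400 features called in females, in males or as the mean of the sexes, edgeR). As the mean of the sexes the values ran from 0.25 ± 0.11 for COX3 to 0.47 ± 0.15 for ATP8, with adjusted p from 0.444 to 0.560 (edgeR). The unadjusted p was under 0.05 for all 6 and for 1271 of all features tested. The median log2 fold change of the 6 genes was 0.36, against 0.0049 over all features, which the same scaling keeps near 0. The other 7 mitochondrial mRNA features were also all positive, with a higher median of 0.48. All 7 had an unadjusted p under 0.05 and none passed (edgeR), so the rise was not particular to the 6 genes. With no low-count filter, 4 of the 6 genes passed, namely ATP8, COX1, COX2 and CYTB (edgeR adjusted p 0.00137 to 0.0354), where 1.97% of 25332 features did. DESeq2 called 39 of all features and none of the 6.

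ATP8 in the VTA had 1.84, 1.54 and 1.34 counts per 100 nuclear counts in females given fentanyl and 1.19 and 1.15 in those given saline. In males it had 1.26, 1.22 and 1.79 after fentanyl and 1.09 and 0.952 after saline. Fentanyl libraries were above saline libraries of either sex, without overlap.

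CYTB showed the same separation, with 4.0, 3.51 and 2.91 in fentanyl females and 3.08, 3.08 and 3.84 in fentanyl males. Its saline values were 2.83 and 2.81 in females and 2.43 and 2.46 in males. ATP8 and CYTB were the only members without overlap when both sexes were pooled in the VTA, as were 0.965% of all features in this direction.

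COX1, with the highest counts, had 8.08, 7.99 and 6.07 in fentanyl females of the VTA against 6.26 and 5.58 in saline females, which overlapped. In males it had 6.07, 6.47 and 7.31 against 5.20 and 4.87. All 6 genes were separate in VTA males, where 11.2% of all features were, and ATP8, ATP6, COX3 and CYTB were separate in VTA females, where 10.1% were. With 3 against 2 libraries per sex, an exact test within a sex cannot go below p = 0.1.

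As shares of mitochondrial mRNA, no member passed between fentanyl and saline in the VTA. Averaged over the sexes the differences ran from -0.96 percentage points for COX3 (exact permutation p = 0.09, adjusted p = 0.241) to 0.18 points for ATP8 (p = 0.52, adjusted p = 0.690). COX3 took 8.20%, 8.65% and 7.72% in fentanyl males and 9.31% and 10.04% in saline males, and ATP6 took 7.18%, 7.08% and 6.79% against 7.50% and 7.69%. These were the members without overlap in VTA males, both lower after fentanyl (15.4% of the 13 features). In VTA females COX1 alone was separate, with means of 23.3 ± 0.508% after fentanyl and 23.9 ± 0.224% after saline (7.69% of the features).

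The level of COX3, the member that lay lower after fentanyl in NAc females, was higher on average after fentanyl in the VTA, at 2.78 ± 0.320 counts per 100 nuclear counts in females given fentanyl and 2.29 ± 0.186 in those given saline. In males the values were 2.35 ± 0.185 and 2.07 ± 0.0291. The difference of the fentanyl effect between VTA and NAc was tested within the 10 rats that gave both. It was 0.33 ± 0.16 for COX3 and -0.10 ± 0.24 for ATP8, and no member and 0% of all 14795 features passed (edgeR adjusted p of 0.906 and 0.980). Over all features 776 had an unadjusted p under 0.05, with none of the 6 genes among them. The female and male effects in the VTA differed by -0.12 to 0.11 on the log2 scale over the 6 genes, none of which passed (0% called, edgeR).

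The regions themselves differed in the level of 4 members by edgeR, and of 3 of these by exact permutation. Within rats CYTB was lower in the VTA by a log2 fold change of -0.73 ± 0.10 (adjusted p = 1.73e-06), ATP8 by -0.81 ± 0.12 (5.69e-06), COX2 by -0.47 ± 0.11 (0.000657) and ATP6 by -0.40 ± 0.09 (0.000551), all by edgeR with rat as a block. COX1 (-0.18 ± 0.09, adjusted p = 0.0875) and COX3 (-0.02 ± 0.08, adjusted p = 0.821) did not pass by edgeR. Of all features tested, 63% passed between regions and 31% passed as lower in the VTA, so a call alone sets no member apart. All of the other 7 mitochondrial mRNA features were called lower in the VTA as well. COX1 passed when rat L2, N3 or SF1 was left out (edgeR adjusted p 0.0475, 0.0360 and 0.0374).

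Per 100 nuclear counts, CYTB ran from 3.52 to 7.67 with a median of 4.81 in 14 NAc libraries and from 2.43 to 4.0 with a median of 3.0 in 10 VTA libraries. COX3 ran from 2.25 to 2.74 with a median of 2.40 in the NAc and from 2.05 to 3.13 with a median of 2.40 in the VTA. CYTB, ATP8 and ATP6 were lower in the VTA in 10 of 10 rats, as were 18.5% of all features, whereas COX3 was lower in 5 and higher in 5. By exact sign-flip permutation over the 10 rats, each of these 3 genes reached p = 0.00195, the smallest possible, with an adjusted p of 0.0282 over 130 tests. COX2, lower in 8 of 10 rats, did not pass by permutation (p = 0.00781, adjusted p = 0.0597), while 69.2% of the 13 features did. VTA libraries also had more nuclear counts, 3.29 M to 4.91 M against 2.24 M to 3.75 M in the NAc, and smaller punches, whose part was not tested.

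Within the mitochondrial mRNA the regions were set apart by COX1 and CYTB. COX1 took 16.0% to 20.3% (median 18.8%) of mitochondrial mRNA counts in the NAc and 22.4% to 24.1% (median 23.4%) in the VTA, without overlap. CYTB took 12.3% to 14.3% in the NAc and 10.4% to 12.0% in the VTA, also without overlap. COX3 overlapped, at 4.25% to 8.72% in the NAc and 7.72% to 10.04% in the VTA.

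Within rats the share of COX1 was higher in the VTA by 4.90 ± 1.26 percentage points (SD, n = 10 rats) and that of COX3 by 2.53 ± 1.25 points, each in 10 of 10 rats (15.4% of the 13 features). The share of CYTB was lower by 1.72 ± 0.734 points in 10 of 10 rats (30.8% of the features). Each had an exact permutation p of 0.00195, the smallest possible, and an adjusted p of 0.0317. Among the 13 features, 46.2% passed by this test. All 3 calls were lost whichever of the 10 rats was left out, where fewer regroupings exist (adjusted p up to 0.0564), and when counts were divided by feature length (adjusted p = 0.0508).

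COX1 counts per CYTB count were 1.44 ± 0.143 in the NAc (n = 14) and 2.07 ± 0.117 in the VTA (n = 10). The ratio lay near 2 in every VTA group, from 1.99 ± 0.0986 in fentanyl males to 2.13 ± 0.134 in fentanyl females. In the NAc it was 1.33 ± 0.138 in fentanyl females (1.39 ± 0.0496 without replicate 1) and 1.61 ± 0.0218 in saline females. In NAc males the order of the means was the opposite, 1.47 ± 0.0786 after fentanyl and 1.39 ± 0.147 after saline, and these groups overlapped. The 6 genes together made up 59.2 ± 1.51% of mitochondrial mRNA counts in the NAc and 64.5 ± 1.35% in the VTA, without overlap.

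**Figure D5:**
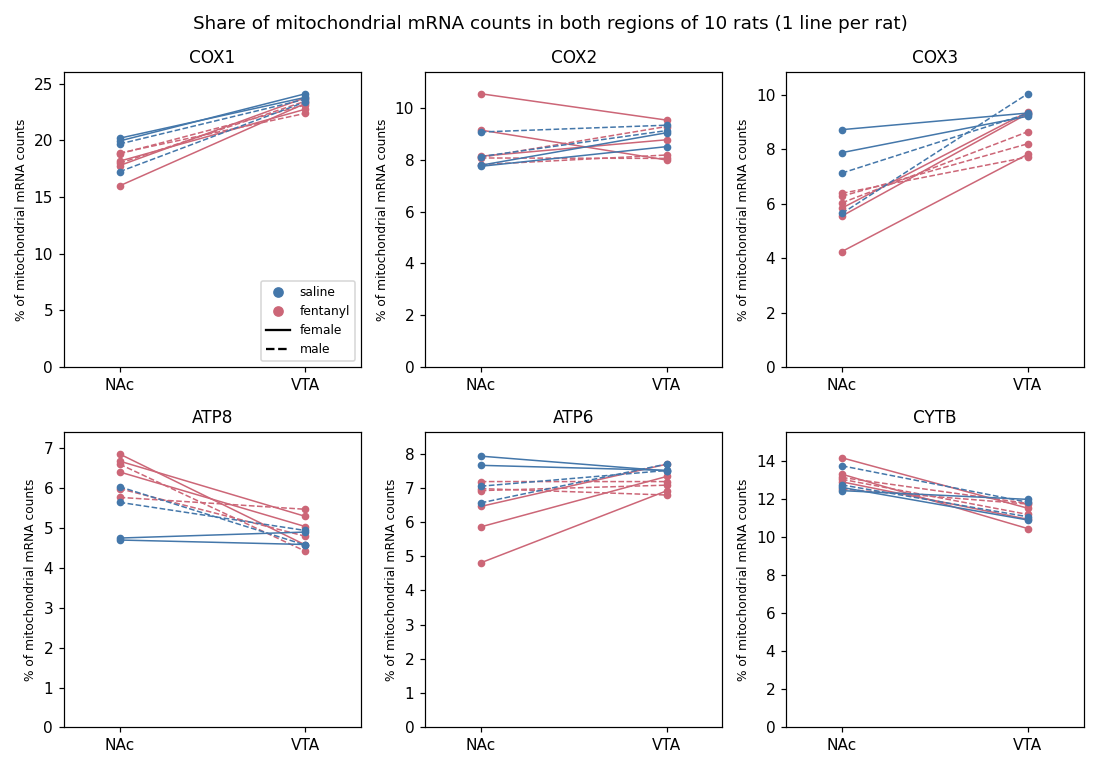
Share of mitochondrial mRNA counts taken by each gene in the NAc and the VTA of 10 rats, with 1 line per rat (red fentanyl, blue saline; solid female, dashed male). COX1 and COX3 rise and CYTB falls from NAc to VTA in 10 of 10 rats, while COX2 has lines in both directions.

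The 6 genes did not vary as 1 block across libraries. With each gene's log2 level per nuclear count centred on its region, over 24 libraries that share a denominator, Pearson's r was 0.96 between COX2 and CYTB and 0.93 between ATP8 and both of them. COX3 had the lowest values, with r of 0.15 to ATP8, 0.25 to COX2, 0.31 to CYTB and 0.63 to COX1. Its r to ATP6, with which it shares a base, was 0.74, and ATP6 in turn had 0.86 to COX1. These values describe the libraries and carry no test.

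Among features that passed the low-count filter in both regions, the highest mean of the 6 correlations, 1 with each gene, was that of ENSRNOG00000030644 (MT 2740 to 3694), at 0.81 over the 24 libraries, from 0.36 with COX3 to 0.96 with CYTB. ENSRNOG00000031033 (MT 3904 to 4942) followed with 0.80 and ENSRNOG00000029971 (MT 11736 to 13565) with 0.79. Outside the mitochondrial chromosome the highest were ENSRNOG00000013000 on chromosome 4 with 0.73 and ENSRNOG00000054689 on chromosome X with 0.72. The lowest were ENSRNOG00000031974 on chromosome 2 with -0.73 and ENSRNOG00000024349 on chromosome 7 with -0.72. The tables name none of these features.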

How the data were processed

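Bulk RNA was measured in 24 libraries. Raw counts per Ensembl feature were deposited by the authors, 1 table per library, with no normalization per the file headers and values. The submitters' processing notes list STAR 2.5.2b, Trimmomatic 0.36, Subread 1.5.2, DESeq2 and featureCounts, with no role or order; per the labels' protocols, ribosomal RNA was depleted and reads were 150 nt pairs at about 22 M per sample. Libraries held 3.46 M to 6.30 M counts, far fewer than the stated reads, and the reason is not given. Shares of all counts and levels per nuclear count rest on these counts alone. The genome build, annotation, strand setting and handling of multiply aligned reads were not given in the sources used here. Of the 35 mitochondrial features, 13 had 200 nt or more and lay at mRNA positions, and the other 22 were shorter. None was identified as a mitochondrial rRNA.

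Groups (region, sex, treatment) came from the labels. The 26 pairs of libraries within groups were checked for copies, and none differed by less than sampling noise. Levels are counts per 100 nuclear counts and percent of the counts of 13 mitochondrial mRNA features. Each region was fitted once in edgeR 4.0.16 (R 4.3.3; TMM, filterByExpr, quasi-likelihood, 4 groups) and the regions within 10 rats with rat as a block, adjusting p over all features by Benjamini-Hochberg. Standard errors come from the F statistic. Exact two-sided permutation tests used log2 levels and shares, adjusted over the 130 tests of 13 features and 10 comparisons per measure (numpy 2.4.6, scipy 1.17.1). Fentanyl labels were permuted within sex and region, sex within treatment for the sex difference, and signs over rats between regions. Permuting sex is exact only where the sexes do not differ at all, with saline as with fentanyl. Patterns used a prior of 0.5 counts. On simulated data, edgeR in the NAc female comparison recovered 95% of 200 features changed by 1 on the log2 scale among 13030. DESeq2 1.42.0, other scalings, no low-count filter, a replicate block and leaving out libraries were tried.

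All 6 genes are described and passed the low-count filter; the features most alike were named by a rule. The genes, lists and tests were chosen with earlier results of these data known. Lists of nuclear subunits and of cell type markers were not analysed, since the tables and the reference used pair no Ensembl identifier with a symbol; for the same reason no sequence is shown.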

Additional observations from a re-analysis of the deposited data

Results flagged for a closer look

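In the NAc the fentanyl effect differed between females and males for ATP8, COX2 and COX3 in at least 1 of the 3 measures tested. By edgeR 0.77% of all features passed this test, and by permutation 23.1% of the 13 mitochondrial mRNA features passed by level and 7.69% by share. The permutation exchanged sex within treatment, which is exact only where the sexes do not differ at all. Saline females and males did not overlap for the level of ATP8. For ATP8 the female minus male difference was 0.98 on the log2 scale by edgeR (adjusted p = 0.0383) and 0.87 on the log2 level per nuclear count by exact permutation (adjusted p = 0.0338). For COX2 the difference of the log2 level per nuclear count was 0.81 by exact permutation (adjusted p = 0.0338). For the share of COX3 in mitochondrial mRNA counts the difference was -2.50 percentage points by exact permutation (adjusted p = 0.0413). By exact permutation the calls for ATP8 and COX2 were each lost in 7 of 16 alternatives, and that for the share of COX3 in 6 of 16. Those for ATP8 and the share of COX3 were lost without fentanyl female replicate 1, that for COX2 was not, and all 3 were lost without fentanyl male replicate 1, 3 or 7 and without saline female replicate 1. Those for ATP8 and COX2 were also lost without saline female replicate 2 or 4, that for COX2 without fentanyl male replicate 2, and that for COX3 with counts divided by feature length. Dixon's test could be applied only to the 2 NAc fentanyl groups, which hold 4 libraries each, and marked none of the 24 sets of values checked; with 4 values this test has little power, and fentanyl female replicate 1 was the extreme library in several of them.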

How the results depend on the processing

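Most values kept their side of the threshold: 932 of 960 other values of log2 fold changes, 794 of 816 of levels and 767 of 816 of shares. No called value changed sign. Among uncalled values the sign changed in 45 log2 fold changes, 39 levels and 28 shares. The number of members called moved to 2 with no low-count filter for the NAc mean of the sexes, from 1 (5.4% of all features called). For the NAc sex difference it was 2 with no low-count filter (1.56%) and 3 by DESeq2 (1.93%), against 1. For the VTA mean of the sexes it was 4 with no low-count filter (1.97%), against 0. For NAc females it stayed at 3 with no low-count filter (8.33%), where COX1 was called and COX2 was not. The number of shares called fell from 4 to 0 with counts per nt of feature length. The causes were not tested.

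Leaving out 1 library or rat at a time gave 1 to 3 members called in NAc females, the 1 without saline replicate 1. It gave 0 to 2 for the NAc sex difference, 4 to 5 between regions, 3 to 7 levels and 1 to 9 shares. In the remaining comparisons the number did not move. The replicate number of the animal code showed no sign of pairing rats: the mean residual correlation was -0.015 over 12 same-numbered NAc pairs and 0.0014 over 10 VTA pairs. So few pairs, with residuals centred within small groups, cannot exclude a pairing. With that number as a replicate block, 3 members were called in NAc females, 1 in the NAc mean and 1 in the NAc sex difference, and no count of members called moved. The call for ATP6 between regions by exact permutation was lost as percent of all counts (adjusted p = 0.0784). Each gene held at least 43074 counts in every library.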
